A study of Mus musculus with 10 samples.

Results

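The genes described here mark the classical and nonclassical monocytes of the mouse. They are F13a1, Ly6c1, Ly6c2, Klf4, Ms4a6c, Treml4, Ace and Spn, 8 genes chosen as markers of these cells and read from whole-transcript arrays of recipient bone marrow (BM). The rule took, for each gene, the probe set that lists that gene alone, with the highest mean where there were several. Of the 8 genes, 6 had such a probe set among the 19938 genes measured. Ly6c1 and Ly6c2 appeared together on 2 probe sets that name both, so that the array gives no separate value for either, and these 2 probe sets are given under both names.

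Monocytes are made in BM from myeloid progenitors and leave it for the blood. Classical monocytes carry Ly6C on their surface, enter inflamed tissue through the chemokine receptor Ccr2 and there become macrophages and dendritic cells. Nonclassical monocytes carry little Ly6C, arise largely from classical ones through the nuclear receptor Nr4a1 and patrol the wall of blood vessels.

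The arrays numbered 10, with 5 from recipients of VD(−) HSCs and 5 from recipients of VD(+) HSCs, and each group had 3 single samples and 2 pools. Both groups of recipients were C57BL6 mice that were sufficient in vitamin D and had been lethally irradiated. They differed in the donor, since fetal liver hematopoietic stem cells (FL-HSCs) came from mid-gestation embryos of dams on a vitamin D-deficient diet, VD(−), or a sufficient one, VD(+). The comparison asks whether the stem cells of deficient embryos give rise to marrow with another monocyte gene program in hosts that are not deficient. The labels give mice of 8 weeks and of both sexes. In the study's methods 8 weeks was the age of recipients at transplant, and marrow was collected weeks later. For the time of collection the study's text and a legend differ. The labels name BM as the source but BM macrophages in the treatment field. Markers of neutrophils, B cells and erythroid cells lay among the brighter probe sets, so the RNA was read here as that of whole marrow, in which fewer cells of a kind and less RNA per cell cannot be told apart. The marrow can also hold host cells that survived irradiation, and whether the pools contain RNA of the single samples is not stated, so the p-values speak of differences among arrays, which may be partly technical.

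The mean of 3 Y-linked genes was between 5.31 and 6.80 on 3 arrays, all VD(−) (replicate 1, pool1 and pool2), and between 2.25 and 2.56 on the other 7. Xist, which is expressed in female cells, was 7.76, 8.14 and 9.83 on these 3 arrays and 10.08 to 10.33 on the other 7. The study's methods describe donor cells pooled from both sexes. On these arrays RNA of male cells was seen in the VD(−) group alone, and the sex of the cells is partly confounded with the group. Values without these 3 arrays, which leave 2 VD(−) arrays, are therefore given beside each member and wherever they turned a direction, moved a difference or median by over 1.5 times or ended a nominal call of a gene named here. All levels below are log2 values and all differences are VD(−) less VD(+) on the log2 scale, with the moderated standard error (SE) of limma and the Benjamini-Hochberg adjusted p over all 35556 probe sets. Values in each group are listed in the order 1, 2, 3, pool1 and pool2. Levels of different genes come from different probes and were not compared with each other.

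None of the 6 genes and neither of the Ly6c probe sets differed between VD(−) and VD(+) recipients at an adjusted p under 0.05 or at a nominal p under 0.05. Over all genes, 0.0903% passed the adjusted threshold (0.118% of all probe sets) and 7.0% the nominal one. In all 8 probe sets the values of both groups overlapped, as they did in all but 1.73% of genes. The 95% intervals of the 8 differences lay between ratios of 0.787 and 1.24, so larger changes in either direction fall outside the interval of any of these probe sets. The adjusted p ranged from 0.785 for Ms4a6c to 0.979 for one of the Ly6c probe sets.

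**Figure D1:**
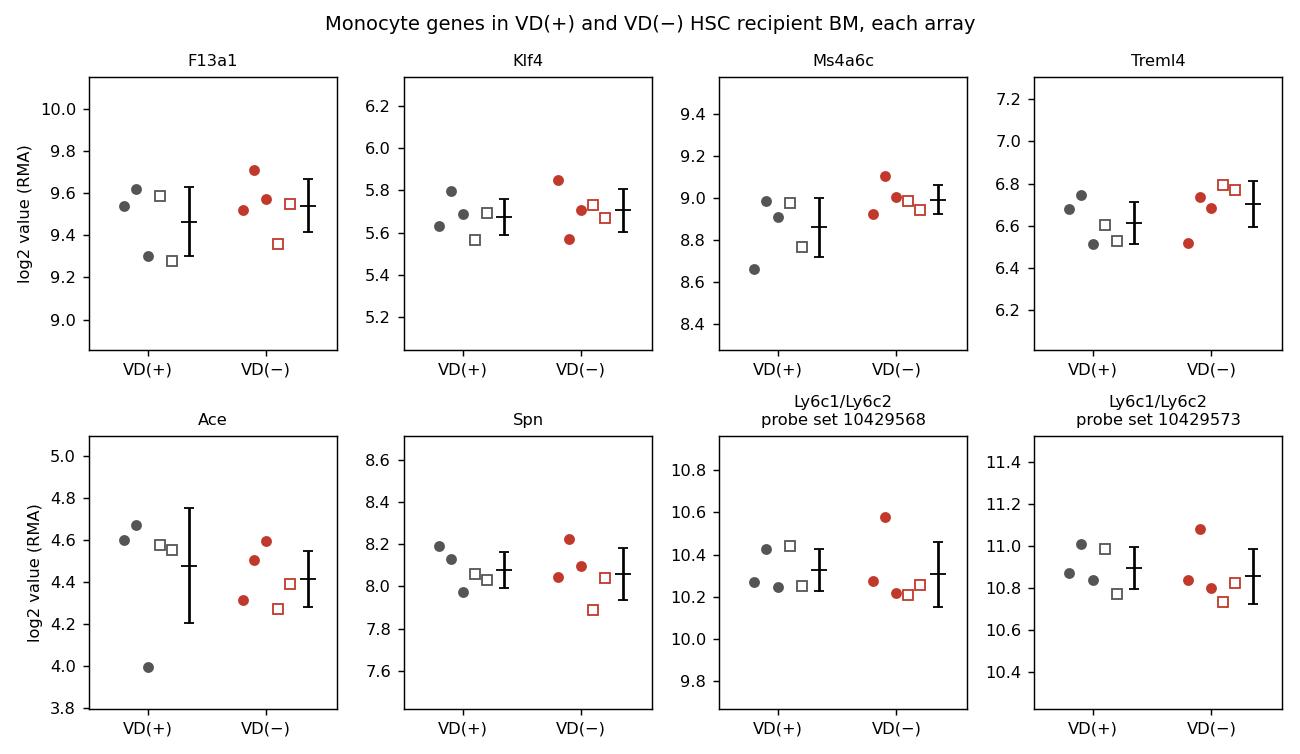
Log2 value of each probe set on each array in VD(+) (grey) and VD(−) (red) HSC recipient BM, with single samples as filled circles, pools as open squares and the mean ± SD (n = 5) as a black bar; each panel spans the same log2 range around its own mean. The groups overlapped in all 8 panels, and VD(+) replicate 3 stood apart in Ace at 4.0.

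Among the classical genes, F13a1 encodes the A subunit of coagulation factor XIII, a transglutaminase that classical monocytes and macrophages produce. Its values were 9.54, 9.62, 9.30, 9.59 and 9.28 in VD(+) recipients and 9.52, 9.71, 9.57, 9.36 and 9.55 in VD(−) recipients. The lowest values were VD(+) pool2 and replicate 3, but VD(−) pool1 also lay below 3 of the VD(+) arrays. VD(−) recipients averaged 9.54 ± 0.13 (SD, n = 5) and VD(+) recipients 9.47 ± 0.16 (SD, n = 5), and the difference of 0.076 (SE 0.095, 95% interval −0.13 to 0.29) was smaller than the spread within either group (adjusted p = 0.899). Without the 3 arrays with Y-linked signal the difference was 0.18.

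Ms4a6c encodes a membrane protein of the MS4A family found on monocytes. Of the members it had the difference with the smallest p. It read 8.66, 8.99, 8.91, 8.98 and 8.77 in VD(+) recipients and 8.93, 9.10, 9.01, 8.99 and 8.94 in VD(−) recipients. The VD(−) arrays were close together (8.99 ± 0.070), whereas VD(+) replicates 1 and 3 and pool2 were lower than all of them and widened the VD(+) group (8.86 ± 0.14). The difference of 0.13 (SE 0.080, −0.043 to 0.31) did not pass the test (adjusted p = 0.785, exact permutation p = 0.111, two-sided). It stayed above 0 with any single array left out (0.083 to 0.16) and was 0.19 without the arrays with Y-linked signal.

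Ly6c1 and Ly6c2 encode the small surface proteins that the Ly6C antibodies recognise, and they lie near each other in the Ly6 cluster. The first shared probe set, 10429568, read 10.27, 10.43, 10.25, 10.44 and 10.25 in VD(+) recipients and 10.27, 10.58, 10.22, 10.21 and 10.26 in VD(−) recipients. One VD(−) array, replicate 2, was the highest of the 10, and the other 4 lay within or just below the VD(+) range. The difference was −0.020 (SE 0.087, −0.21 to 0.17, adjusted p = 0.979). The second, 10429573, read 10.87, 11.01, 10.84, 10.99 and 10.77 in VD(+) and 10.84, 11.08, 10.80, 10.73 and 10.83 in VD(−) recipients, with the same array highest and a difference of −0.040 (SE 0.082, −0.22 to 0.14, adjusted p = 0.946). Both turned slightly positive, to 0.072 and 0.045, without the arrays with Y-linked signal. A change of Ly6c1 against Ly6c2 would not be visible in these values.

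Klf4 encodes a zinc-finger transcription factor that promotes monocyte differentiation. Its values were 5.63, 5.80, 5.69, 5.57 and 5.69 in VD(+) and 5.85, 5.57, 5.71, 5.73 and 5.67 in VD(−) recipients, and both groups covered nearly the same range. The difference was 0.030 (SE 0.072, −0.13 to 0.19, adjusted p = 0.957) and became −0.037 without the arrays with Y-linked signal.

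Among the nonclassical genes, Treml4 encodes a receptor of the TREM family that nonclassical monocytes carry. It read 6.68, 6.74, 6.51, 6.60 and 6.53 in VD(+) and 6.52, 6.74, 6.68, 6.80 and 6.77 in VD(−) recipients. The pools of VD(−) recipients were the 2 highest arrays and VD(−) replicate 1 was among the lowest. The difference of 0.089 (SE 0.077, −0.081 to 0.26, adjusted p = 0.839) was carried by the pools, which differed by 0.22, while the single samples differed by 0.0028. It was 0.098 without the arrays with Y-linked signal.

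Ace encodes angiotensin-converting enzyme, which endothelium also carries. Its mean lay below that of the median probe set. It read 4.60, 4.67, 4.0, 4.57 and 4.55 in VD(+) recipients and 4.31, 4.50, 4.59, 4.27 and 4.39 in VD(−) recipients. Most VD(+) arrays were higher than most VD(−) arrays, and VD(+) replicate 3 was the lowest of the 10. The means were 4.41 ± 0.13 in VD(−) and 4.48 ± 0.27 in VD(+), with a difference of −0.063 (SE 0.13, −0.35 to 0.22, adjusted p = 0.947). This single array set the size of the difference, which was −0.18 without it at a nominal p of 0.0531. The difference was 0.071 without the arrays with Y-linked signal. Of 9 endothelial markers 6 were above 0, with a median of 0.085, which was 0.052 without the arrays with Y-linked signal. Their mean level was 5.76 to 6.10 in VD(−) and 5.68 to 5.91 in VD(+) recipients, and their part in the value of Ace was not tested.

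Spn encodes CD43, a heavily glycosylated sialoprotein that nonclassical monocytes carry at high level and that T cells and progenitors of the marrow carry as well. It read 8.19, 8.13, 7.97, 8.06 and 8.03 in VD(+) and 8.04, 8.23, 8.10, 7.89 and 8.04 in VD(−) recipients. The VD(−) arrays held both the highest and the lowest value. The difference was −0.019 (SE 0.077, −0.19 to 0.15, adjusted p = 0.977) and turned to 0.085 without the arrays with Y-linked signal. Of 13 markers of T and NK cells 10 were above 0, with a median of 0.078, which was 0.30 without the arrays with Y-linked signal. Their mean level was 5.76 to 6.50 in VD(−) and 5.87 to 6.32 in VD(+) recipients, and their part in the value of Spn was not tested.

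**Figure D2:**
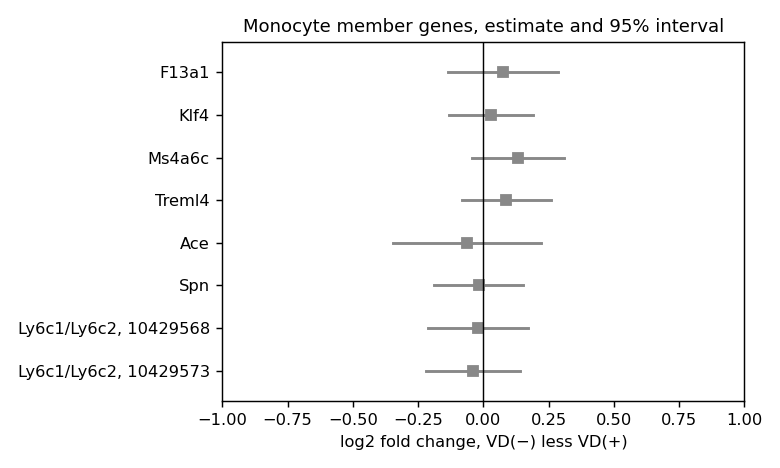
Log2 fold change of each probe set, VD(−) less VD(+), as the limma estimate with its 95% interval (5 arrays per group), with single-gene and shared Ly6c probe sets. Every interval crossed 0, with estimates from −0.063 for Ace to 0.13 for Ms4a6c.

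Most members varied less between arrays of one group than the median gene, and Ace varied more. The SD within groups was 0.094 for Klf4, 0.10 for Treml4, 0.11 for Spn, 0.11 for Ms4a6c, 0.15 for F13a1 and 0.21 for Ace, against a median of 0.16 over all genes. The arrays that stood at the ends of the members' ranges were often the same. VD(−) replicate 2 was the highest of the 10 arrays in 5 of the 8 probe sets (F13a1, Ms4a6c, Spn and both for Ly6c), and VD(−) pool1 was the lowest in 3. On VD(−) replicate 2 the mean of 9 markers of monocyte and granulocyte progenitors was 9.46, against 9.17 to 9.32 on the other arrays, and that of 12 neutrophil markers was 11.73, against 11.29 to 11.65. The mean of 12 classical monocyte markers, F13a1 and Ms4a6c among them, was 9.84 there, against 9.47 to 9.80. For 14 genes shared by monocytes and macrophages it was 9.19, against 8.70 to 9.12. The part of these cells in the members' values was not tested.

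To see whether classical and nonclassical members moved apart, the mean of F13a1 and Ms4a6c less the mean of Treml4, Ace and Spn was taken on each array. Only its change between arrays has a meaning, since the probes differ. It was 2.61, 2.79, 2.95, 2.87 and 2.65 in VD(+) recipients and 2.93, 2.92, 2.83, 2.86 and 2.85 in VD(−) recipients. The VD(−) arrays lay within the wider VD(+) range, and the means differed by 0.10 (2.88 ± 0.045 against 2.77 ± 0.14, SD, n = 5 each). The top of that range, 2.95, was VD(+) replicate 3, the array that was lowest in Ace. The next VD(+) value was 2.87, below VD(−) replicates 1 and 2. The difference was 0.14 without VD(+) replicate 3, 0.061 without VD(+) replicate 1 and 0.057 with the Ly6c probe sets counted among the classical members.

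The genes whose profile over the 10 arrays was most like that of a member, by the root mean square (RMS) difference of mean-centred log2 values among 16872 candidates, came from many functions. Spn was nearest to Mpo, which encodes the peroxidase of neutrophil and monocyte precursors (RMS difference 0.037), and then to Arf3 (0.039). Ms4a6c was nearest to Ppp4c (0.042) and to Naip2, a sensor of bacterial proteins in macrophages (0.049). The nearest were Hoxd11 for F13a1 (0.055), Fbxo22 for Klf4 (0.039), Tsg101 for Treml4 (0.051) and Gdf7 for Ace (0.050). With 10 arrays such likeness is a description only.

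A wider list of 15 classical monocyte genes had 12 measured, of which 9 differences were above 0 and 3 below, with a median of 0.066. The median was 0.18 without the arrays with Y-linked signal, 0.12 with single samples alone and 0.011 with pools alone. Over all genes 50.3% were above 0 and the median was 0.0010. None of the 12 passed the adjusted threshold. Vcan and Ccr2 passed the nominal one and both were higher in VD(−) recipients, against 4.05% of all genes. The rest, among them Mgst1, Plac8, Ly86, Fn1, Hp, Chil3, Gda and Ms4a4c, did not pass it. The 3 genes below 0 all turned without the arrays with Y-linked signal. Ms4a4c went from −0.078 to 0.18, Gda from −0.075 to 0.13 and Chil3 from −0.016 to 0.051. On the same arrays Mgst1 went from 0.14 to 0.33, Fn1 from 0.049 to 0.22 and Hp from 0.028 to 0.15.

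Vcan encodes versican, a matrix proteoglycan that classical monocytes express strongly. It read 7.33, 7.67, 7.31, 7.72 and 7.21 in VD(+) recipients and 7.90, 8.19, 8.35, 7.78 and 8.35 in VD(−) recipients, so that every VD(−) array was above every VD(+) array. Groups did not overlap in 1.73% of all genes. The difference was 0.67 (SE 0.15, 0.35 to 0.99), the largest of the list, with an adjusted p of 0.233 and an exact permutation p of 0.00794, the smallest that 5 arrays against 5 can give. It was between 0.61 and 0.75 with any single array left out and 0.82 without the arrays with Y-linked signal.

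Ccr2, the receptor through which classical monocytes leave the marrow, read 8.37, 8.98, 8.47, 9.02 and 8.60 in VD(+) and 8.96, 9.01, 8.92, 9.03 and 8.93 in VD(−) recipients. The VD(−) arrays were close together, while 3 of the VD(+) arrays, the same ones as in Ms4a6c, lay lower. The difference was 0.28 (SE 0.13, adjusted p = 0.700) at a nominal p of 0.0487, which was between 0.0106 and 0.117 with single arrays left out and under 0.05 in 2 of these 10 cases. The exact permutation p was 0.135, and without the arrays with Y-linked signal the difference was 0.28 at a nominal p of 0.202. Plac8, a small protein abundant in monocytes, differed by 0.10 (SE 0.096, adjusted p = 0.858).

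The list of 17 nonclassical monocyte genes was measured in full, with 9 differences above 0, 8 below and a median of 0.014, which was 0.071 without the arrays with Y-linked signal. None passed the adjusted threshold. At the nominal one Clec4a3 and Clec4a1 were higher and Nr4a1 and Pou2f2 lower in VD(−) recipients, against 4.05% of genes higher and 2.95% lower.

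**Figure D3:**
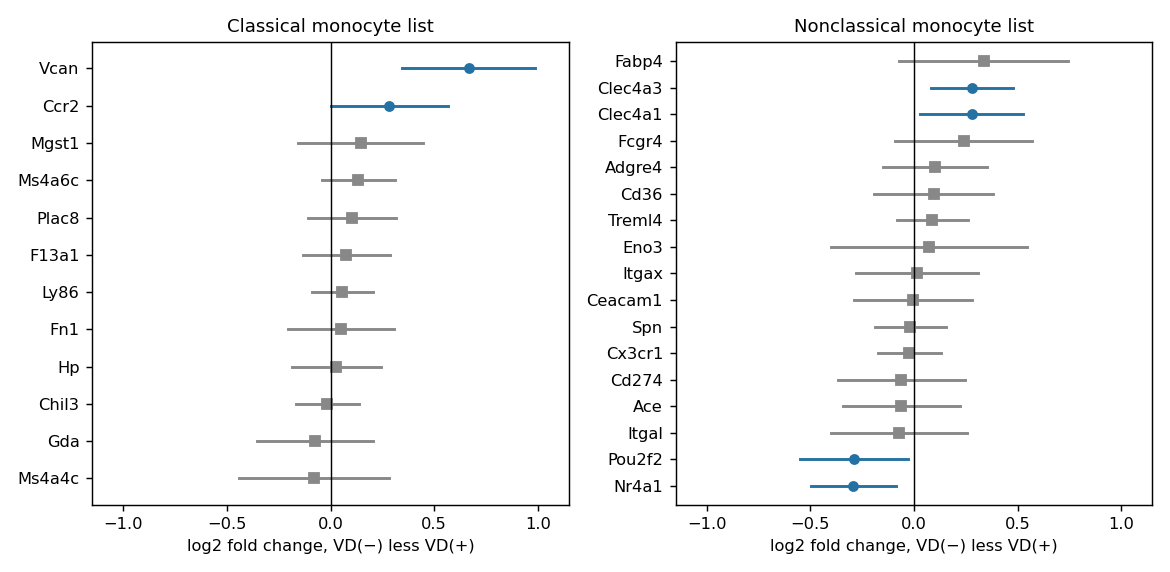
Log2 fold change, VD(−) less VD(+), of the measured genes of the classical list (left, 12 genes) and the nonclassical list (right, 17 genes), with 95% intervals from limma; blue circles are genes at a nominal p under 0.05 and grey squares the others. Vcan led the classical list at 0.67, and in the nonclassical list Clec4a3 and Clec4a1 (0.28 each) and Nr4a1 and Pou2f2 (−0.29 each) lay on opposite sides of 0.

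Nr4a1, the orphan nuclear receptor that nonclassical monocytes need, read 5.40, 5.09, 5.22, 5.13 and 5.49 in VD(+) and 4.85, 4.98, 5.12, 5.0 and 4.94 in VD(−) recipients. Only VD(−) replicate 3 reached into the VD(+) range. The difference was −0.29 (SE 0.092, −0.50 to −0.089, adjusted p = 0.540, exact permutation p = 0.0159). It was −0.22 without the arrays with Y-linked signal, at a nominal p of 0.140. Nr4a1 is also an immediate early gene of many cell types.

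Pou2f2 encodes Oct2, a factor of nonclassical monocytes and of B cells. Its values were 6.12, 6.18, 5.98, 5.62 and 6.20 in VD(+) and 5.68, 5.56, 5.88, 5.68 and 5.86 in VD(−) recipients, a difference of −0.29 (SE 0.12, adjusted p = 0.667). The groups overlapped through VD(+) pool1, which was among the lowest arrays. Of 9 measured B cell markers 8 were below 0 and 4 of them at a nominal p under 0.05, against 2.95% of all genes lower. Fcer2a, the low-affinity IgE receptor of mature B cells, was the one of them that passed the adjusted threshold (−0.58, SE 0.081, adjusted p = 0.0305, named after its value was seen). Over all genes 0.0903% passed that threshold. The B cell markers had a median of −0.28, which was −0.58 without the arrays with Y-linked signal, and a list mean of 7.11 to 8.02 in VD(−) and 7.49 to 7.94 in VD(+) recipients. The part of B cells in the value of Pou2f2 was not tested. Without the arrays with Y-linked signal Pou2f2 differed by −0.30 at a nominal p of 0.131. With one array left out, Pou2f2 kept a nominal p under 0.05 in 4 of 10 cases and Nr4a1 in 10 of 10.

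Clec4a3 and Clec4a1 encode C-type lectin receptors of the DCIR family. Clec4a3 read 7.43, 7.69, 7.83, 7.68 and 7.74 in VD(+) and 7.93, 8.01, 7.85, 8.12 and 7.84 in VD(−) recipients. The groups did not overlap, as in 1.73% of all genes, but VD(−) pool2 and VD(+) replicate 3 nearly touched. The difference was 0.28 (SE 0.089, adjusted p = 0.542), and Clec4a1 differed by 0.28 (SE 0.11, adjusted p = 0.668) with overlapping groups. Without the arrays with Y-linked signal they differed by 0.26 and 0.17, at nominal p of 0.0712 and 0.226. With one array left out, the nominal p was under 0.05 in 10 of 10 cases for Clec4a3 and in 5 of 10 for Clec4a1.

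**Figure D4:**
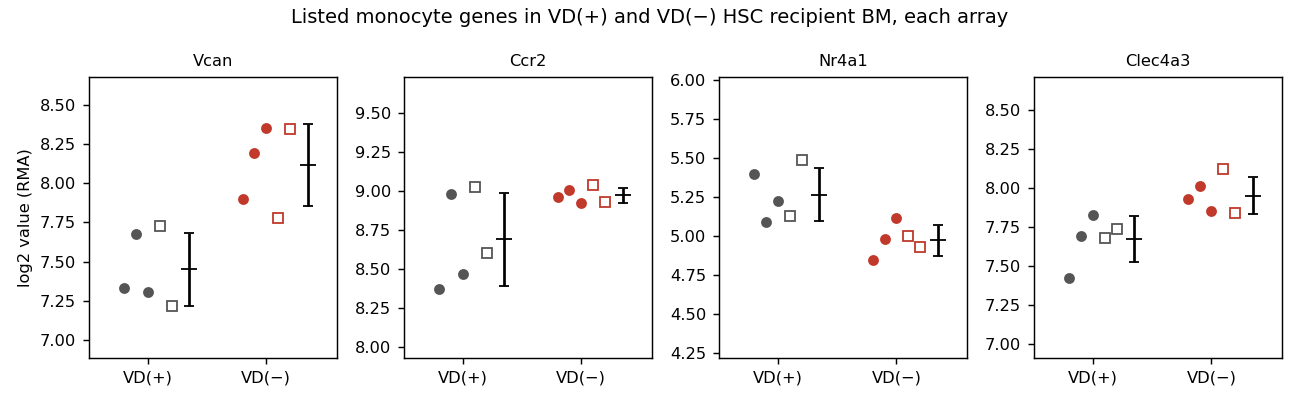
Log2 value on each array of Vcan, Ccr2, Nr4a1 and Clec4a3, the leading genes of each list by nominal p, in VD(+) (grey) and VD(−) (red) HSC recipient BM, with single samples as filled circles, pools as open squares and mean ± SD (n = 5) as a black bar. VD(−) arrays were above all VD(+) arrays in Vcan and Clec4a3, and the groups overlapped in Ccr2 and Nr4a1.

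Upstream of the monocyte genes, 12 of 13 transcription factors of the lineage were measured, with 7 above 0, a median of 0.0052 (−0.0087 without the arrays with Y-linked signal) and none past the adjusted threshold. Nr4a1 and Pou2f2, described above, were the only ones of them at a nominal p under 0.05, against 2.95% of all genes lower. Zeb2, which keeps the identity of monocytes and tissue macrophages, differed by 0.16 (SE 0.088, adjusted p = 0.754), and Cebpa, a factor of all granulocyte and monocyte progenitors, by 0.13 (SE 0.081, adjusted p = 0.796). Zeb2 differed by 0.070 without the arrays with Y-linked signal.

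Of 15 growth factors, traffic receptors and their ligands, all measured, 9 were above 0 and the median was 0.075. Ccr2 and Cxcl12 were higher at the nominal threshold, against 4.05% of all genes, and none passed the adjusted one. Cxcl12, the stromal chemokine that holds stem cells and monocytes in the marrow, was 9.71 ± 0.18 in VD(−) and 9.48 ± 0.11 in VD(+) recipients, a difference of 0.24 (SE 0.095, adjusted p = 0.663). Ccl2, the ligand of Ccr2, differed by 0.27 (SE 0.13, adjusted p = 0.732) and Csf1, the growth factor of monocytes, by 0.22 (SE 0.11, adjusted p = 0.741). Cxcl12 kept a nominal p under 0.05 in 4 of 10 cases with one array left out. Its difference was 0.11 without the arrays with Y-linked signal, and for Ccl2 it was 0.34.

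The 9 genes of monocyte and granulocyte progenitors had 5 differences above 0, a median of 0.064 and none at a nominal p under 0.05. Flt3, the receptor of early progenitors and dendritic cell precursors, differed by −0.32 (SE 0.15, adjusted p = 0.722). Ms4a3, which marks the shared progenitor of granulocytes and monocytes, differed by 0.20 (SE 0.12, adjusted p = 0.789), Prtn3, a granule protease, by 0.17 (SE 0.12, adjusted p = 0.806) and Cd34 by 0.064 (SE 0.069, adjusted p = 0.878). Without the arrays with Y-linked signal Prtn3 differed by 0.34, at a nominal p of 0.0449, and Cd34 by −0.0031.

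Among 14 genes shared by monocytes and macrophages, 12 were above 0, with a median of 0.10, which was 0.18 without the arrays with Y-linked signal. The median was 0.16 with single samples alone and 0.020 with pools alone. At a nominal p under 0.05, 3 of the 14 were higher, against 4.05% of all genes. Cd14, the co-receptor for lipopolysaccharide, was the only gene of these lists of the lineage past the adjusted threshold, against 0.0903% of all genes. It was 7.79 ± 0.41 in VD(−) and 6.09 ± 0.23 in VD(+) recipients, a difference of 1.70 (SE 0.19, adjusted p = 0.0109). Its adjusted p no longer passed with the methods' t-test, single samples alone (1.85), pools alone (1.48), the replicate block or without VD(+) replicate 3 (1.71), and the difference lay between 1.48 and 2.05 in all alternatives. Cd68, a lysosomal protein of the lineage, differed by 0.27 (SE 0.078, adjusted p = 0.482) and Mpeg1, a pore-forming protein of macrophages, by 0.13 (SE 0.055, adjusted p = 0.671). In each the groups did not overlap, as in 1.73% of all genes. For Mpeg1 the nominal p was 0.105 without the arrays with Y-linked signal. Tlr4, the partner of Cd14, differed by 0.32 (SE 0.17, adjusted p = 0.747), and by 0.54 without the arrays with Y-linked signal, at a nominal p of 0.0147. None of the 8 probe sets of the members followed Cd14 to a difference of that size, the highest upper limit among them being 0.31.

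Of 13 markers of tissue macrophages, which the marrow also holds, 12 were above 0 with a median of 0.16. At the nominal threshold 2 were higher, against 4.05% of all genes. The median was 0.050 without the arrays with Y-linked signal, where Vsig4 and Timd4 had nominal p of 0.0727 and 0.231. Their mean level lay between 7.27 and 7.81 in VD(−) and between 6.85 and 7.49 in VD(+) recipients. Vsig4, a complement receptor of resident macrophages, differed by 0.84 (SE 0.28, adjusted p = 0.561) and Timd4, their receptor for dying cells, by 0.42 (SE 0.17, adjusted p = 0.671). The part of these cells in the values of Vcan, Clec4a3 and Clec4a1 was not tested.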

How the data were processed

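Values are deposited log2 intensities that the authors made with Partek software and RMA, per the labels' processing notes. RMA corrects background, gives all arrays one distribution and summarises each probe set, so differences in total RNA are removed. Array medians lay between 4.74 and 4.80, and precision is limited by how few arrays there were. The sources used here give neither the authors' filters nor a genome build. The methods name a miRNA array, but the probe sets match the annotation of a whole-transcript mouse gene array. Arrays were grouped by the labels, and 0 columns were left unused.

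The array's annotation lists 1 gene for 21789 of 35556 probe sets, several for 1621 and none for 12146. The brightest single-gene probe set stood for each gene (19938 genes).

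limma 3.58.1 (lmFit, then eBayes) was run in R 4.3.3 on all probe sets, with two-sided tests. Single genes also had an exact permutation test of 5 against 5 arrays (SciPy 1.17.1). The fit was tested on simulated data. Members and the 18 gene lists were chosen with earlier results of these data known. Named genes were the members, the 4 genes of each list with the smallest nominal p and, for each member, the 2 most like it. Of these only some are printed. Likeness left out small RNAs, pseudogenes, predicted or numbered gene models, immunoglobulin segments and the olfactory and vomeronasal receptors. Listed genes without a single-gene probe set were not analysed here.

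Alternatives were the methods' t-test, a trended and robust spread, array weights, cyclic loess, brighter probe sets alone (mean above 4.74), averaging the probe sets of each gene, pool or single as a covariate, singles alone, pools alone, a covariate of Y-linked genes less Xist, the 7 arrays without Y-linked signal (mean under 4), the replicate number as a block and leaving out each array. The plan named Ly6c1 and Ly6c2 in the classical list and in the classical less nonclassical mean. Neither has a single-gene probe set, so the main values leave them out. Use of the shared Ly6c probe sets in their place was added after the data were seen.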

Additional observations from a re-analysis of the deposited data

Results flagged for a closer look

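Of 78 groups of 5 arrays examined, 4 had one array far from the other 4, where chance alone would mark about 1 in 20. In Ace, VD(+) replicate 3 was the lowest at 4.0. In the Ly6c probe set 10429568, VD(−) replicate 2 was the highest at 10.58. In Cd68, VD(+) replicate 1 was the lowest at 8.46. In Tlr4, VD(−) replicate 1 was the lowest at 6.64.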

How the results depend on the processing

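None of the 6 genes and neither of the Ly6c probe sets passed an adjusted or a nominal p under 0.05 under any alternative that gave it a value. Ace had no value among the brighter probe sets alone. The signs of small differences turned. With single samples alone, Ace was 0.049, Spn 0.024 and the Ly6c probe set 10429568 0.043. With a covariate of Y-linked genes less Xist, Ace was 0.067, Spn 0.077, Klf4 −0.045, the Ly6c probe sets 0.056 and 0.034 and Cd34 −0.025. Without the arrays with Y-linked signal, Ace was 0.071, Spn 0.085, Klf4 −0.037, the Ly6c probe sets 0.072 and 0.045 and Cd34 −0.0031. Of the classical list, Ms4a4c, Gda and Chil3 turned positive as well. They were 0.21, 0.17 and 0.023 with the Y-linked covariate, and 0.18, 0.13 and 0.051 without the arrays with Y-linked signal. Leaving out one array gave −0.0061 to 0.064 for Klf4, −0.061 to 0.025 for Spn and −0.087 to 0.0089 for the first Ly6c probe set. The median of the nonclassical list, 0.014, was 0.072 among brighter probe sets, 0.067 with the Y-linked covariate and 0.071 without the arrays with Y-linked signal. The cause was not tested.

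Of all probe sets 42 passed the adjusted p, against 9 with the methods' t-test, 1 with single samples, 2 with pools, 25 with the Y-linked covariate, 12 without the arrays with Y-linked signal and 7 to 43 with one array left out. With the replicate number as a block 3 passed. Arrays of the same number did not deviate together (correlations of −0.052 to 0.061, own number best for 1 of 5), so the numbers were not taken as pairs.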

Other observations

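Interferon-induced genes, which nonclassical monocytes and many other cells express, had 12 of 14 measured differences below 0, with a median of −0.29. Lower at a nominal p under 0.05 were 3, against 2.95% of all genes. Irf7, the factor that amplifies the interferon response, differed by −0.53 (SE 0.23, adjusted p = 0.692) and Bst2, tetherin, by −0.30 (SE 0.10, adjusted p = 0.564). Without the arrays with Y-linked signal the median of this list was 0.024, and Irf7 and Bst2 differed by −0.099 and −0.085.

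The 8 measured genes of megakaryocytes and platelets were all below 0, with a median of −0.13 and none at a nominal p under 0.05. Itga2b and Itgb3, the subunits of the platelet fibrinogen receptor, differed by −0.25 (SE 0.12, adjusted p = 0.734) and −0.30 (SE 0.16, adjusted p = 0.742), and Vwf by −0.28 (SE 0.13, adjusted p = 0.717), which was −0.13 without the arrays with Y-linked signal. Of 12 neutrophil genes 9 were below 0, with a median of −0.059 and none at the nominal threshold. Medians were 0.10 for 6 plasma cell genes, −0.064 for 9 dendritic cell genes, 0.069 for 7 erythroid genes and 0.043 for 6 genes of marrow stroma, and none of these genes passed the adjusted threshold. At the nominal threshold 2 dendritic cell genes, 1 erythroid gene and 1 stroma gene were higher, against 4.05% of all genes. Without the arrays with Y-linked signal the median turned to 0.073 for neutrophils, 0.096 for dendritic cells and −0.17 for stroma, and was 0.069 for plasma cells.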
